A study of Mus musculus with 10 samples.

Results

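The genes described are the translation initiation and elongation factor genes, taken as every row of the count table whose symbol starts with Eif or Eef followed by a digit. The rule found 63 of the 24059 gene symbols in the table, of which 55 were Eif and 8 were Eef genes. It therefore also takes in regulators that carry the same name stem, such as the eIF2 alpha kinases (Eif2ak1 to Eif2ak4) and the eIF4E-binding repressors (Eif4ebp1 to Eif4ebp3), and leaves out factors of other names. All 63 symbols were found in the RefSeq annotation of GRCm38, the mouse genome build that mm10 names.

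Initiation factors bring the initiator tRNA, the mRNA and the small ribosomal subunit together and choose the start codon. eIF2 carries the initiator tRNA, the eIF4 group binds the mRNA cap and unwinds the leader, eIF3 holds the small subunit, and eIF5B joins the large one. Elongation factors then serve every codon: eEF1A delivers aminoacyl-tRNA, the eEF1B complex recharges eEF1A with GTP, and eEF2 moves the ribosome along. Both steps are under control by phosphorylation, of eIF2 by the stress-sensing eIF2 alpha kinases and of eEF2 by eEF2 kinase.

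RNA of whole lungs from 10 female C57Bl/6 mice was sequenced, 1 sample per mouse. Mice of the FO group (n = 5) had been fed a high-fat diet enriched in n-3 PUFAs from menhaden fish oil for 8 weeks, and mice of the CO group (n = 5) an isocaloric high-fat diet enriched in saturated fat from coconut oil. All mice were 14 weeks of age, and a mouse on ordinary chow was not part of the comparison, so each difference is between 2 high-fat diets. The study asked what the fish oil diet changes in the lung, and the comparison here asks whether the diets differed in RNA of the translation factors.

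Totals ranged from 229766 to 1124963 counts per mouse, of which Rn45s, the 45S ribosomal RNA precursor, took 21.8 to 87.0%. The other genes shared 45177 to 473254 counts per mouse. Values are CPM, counts scaled to a library of fixed size after TMM normalization, and the library includes Rn45s, and 1 count stood for 0.764 CPM in the deepest library (FO2) and for 6.65 CPM in the shallowest (CO1). The nuclear RNA Malat1 held 8.53% of the counts outside Rn45s in FO2 and 6.15% in CO5, against at most 1.05% in the other 8 libraries, so counts of calls are also given without these 2 mice, with the single genes that moved most. All 9 lung epithelium markers had counts, and their summed level spanned 2992 to 4568 CPM in FO and 3110 to 4173 CPM in CO. Cardiac muscle markers (13 of 13 with counts) summed to 81.9 to 378 CPM in FO and 45.1 to 213 CPM in CO. Markers of neutrophils and macrophages (8 of the 9 in the table with counts, Mpo at 0) summed to 74.9 to 327 CPM in FO and 45.1 to 79.9 CPM in CO. Endothelial markers (5 of 5) spanned 190 to 420 CPM in FO and 227 to 390 CPM in CO, and lymphocyte markers (9 of 9 in the table) 6.45 to 36.0 CPM and 0 to 49.9 CPM. Of 9 red blood cell markers, the 6 hemoglobin genes were listed at 0 in every mouse and the other 3 summed to at most 81.1 CPM. In whole lung, fewer cells of a type and less RNA per cell cannot be told apart.

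Of the 63 genes, 53 had counts and 10 were listed at 0 in all 10 mice. Of the 10, 6 lie on chromosome 15, and they are all the Eif and Eef genes that lie there. They encode the eIF3 subunits Eif3d, Eif3e, Eif3h and Eif3l, the helicase partner Eif4b and the eEF1B subunit Eef1d. The zeros were not particular to translation factors: all 705 protein-coding symbols of chromosome 15 were at 0 in every mouse, whereas 56.07 to 78.31% of the protein-coding symbols of each other autosome and of X had a count. The plot of symbols with a count by chromosome shows this gap. No value of these 6 genes, and no total over eIF3 or eEF1B that would need them, can therefore be read from the table, and the cause of the zeros was not tested.

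**Figure D1:**
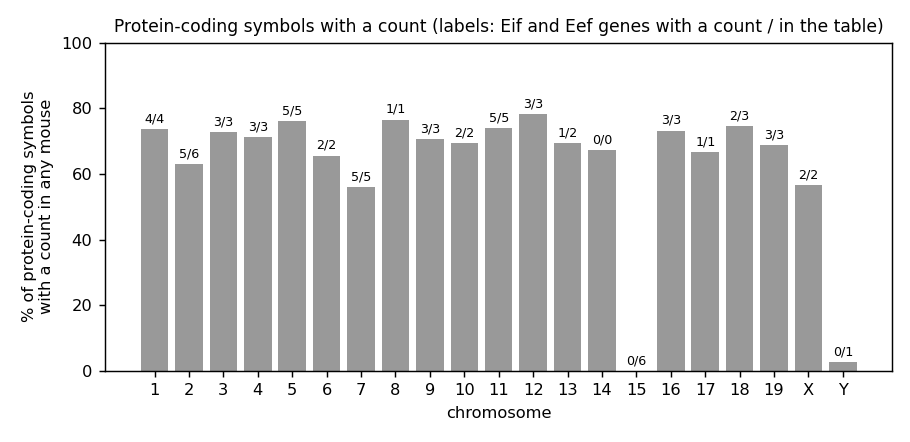
Percent of protein-coding gene symbols with a count in at least 1 of the 10 mice, by chromosome, with the number of Eif and Eef genes with a count and in the table above each bar. Chromosome 15 stands at 0 of 705 symbols and 0 of 6 Eif and Eef genes, and Y at 1 of 39 symbols.

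The other 4 genes at 0 were Eif3j1 on chromosome 2, Eif3j2 on chromosome 18, Eif4e1b on chromosome 13 and Eif2s3y on Y. Eif3j1 and Eif3j2 encode near-identical copies of an eIF3-associated subunit. Of all stretches of 50 bases in the Eif3j2 transcript, 91.8% recur in transcripts of other genes, chiefly Eif3j1, and 54.8% of those of Eif3j1 recur. How the counting treated reads that match several genes is not given in the sources used here. Eif4e1b is known as an oocyte form of the cap-binding protein, and Eif2s3y is the Y-linked copy of an eIF2 subunit whose X-linked copy, Eif2s3x, had 122 counts over the 10 female mice. The 10 mice were female and carry no Y chromosome, where 1 of 39 protein-coding symbols had a count. What set the zeros of Eif3j1, Eif3j2 and Eif4e1b was not tested.

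Another 28 genes had counts but fell under the filter on low counts, 25 Eif genes with 6 to 158 counts over the 10 mice and 3 Eef genes with 2 to 11. The filter left 25 of the 63 genes for testing, 21 Eif and 4 Eef. Those 25 are the abundant members and do not stand for the whole set.

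None of the initiation and elongation factor genes tested passed the test for a difference between the diets. At an unadjusted p-value under 0.05, edgeR's quasi-likelihood test called 0 of the 21 Eif genes and 0 of the 4 Eef genes, against 2.91% of all 2438 genes tested (1.68% higher and 1.23% lower in FO). After Benjamini-Hochberg adjustment over all genes tested by edgeR, each of the 25 had an adjusted p = 0.998 and 0 of the 2438 genes passed. DESeq2 also called 0 of the 25 at the unadjusted threshold, against 2.54% of all genes. The FO and CO values overlapped in all 25 genes, and over all genes tested 0.410% did not overlap. A count of 0 among 25 genes is near that background.

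The size of any difference was bounded less tightly than these counts may appear. The log2 fold change of FO over CO ran from -0.52 (Eif3i) to 0.39 (Eif4e2) among Eif genes and from -0.05 (Eef1g) to 0.25 (Eef1b2) among Eef genes, with SEs of 0.21 to 0.34. For 21 of the 25 genes the 95% interval lay within a change of 1 on the log2 scale in either direction. The other 4 were Eif3f and Eif3i, whose intervals reached -1.01 and -1.18, and Eif4a1 and Eif4e2, whose intervals reached 1.05 and 1.08. The fold change was above 0 in 14 of 21 Eif genes and in 2 of 4 Eef genes, against 50.57% of all genes tested. Its median was 0.06 for Eif, 0.08 for Eef and 0.00 for all genes.

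**Figure D2:**
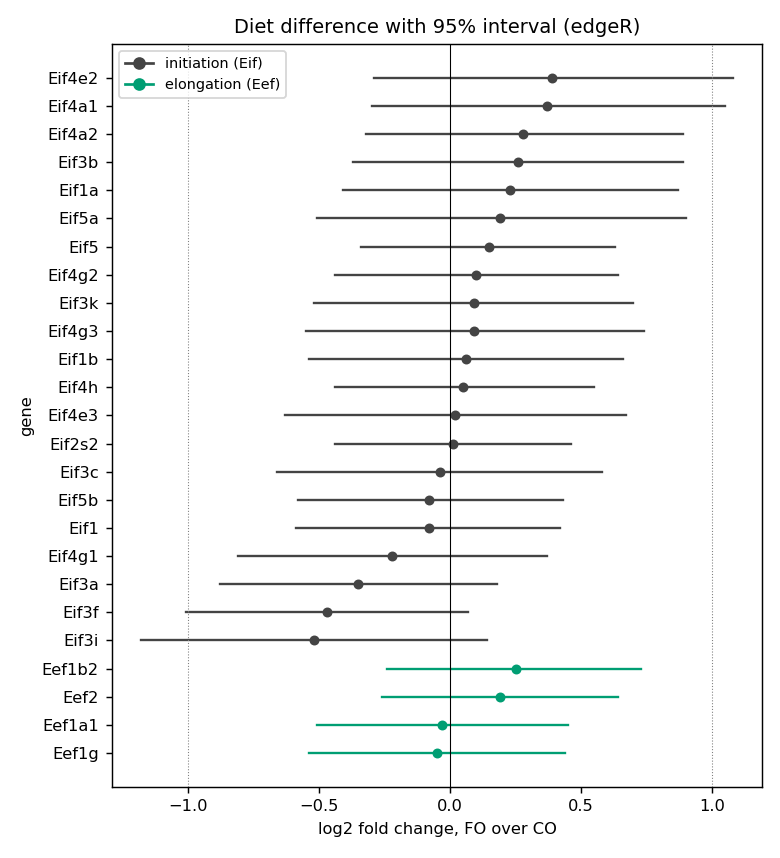
Log2 fold change of FO over CO (points) with its 95% interval (lines) from edgeR for the 21 Eif and 4 Eef genes tested. All 25 intervals cross 0, and the 4 that reach beyond 1 in either direction belong to Eif3f, Eif3i, Eif4a1 and Eif4e2.

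Among the elongation factors, Eef1a1, which encodes the abundant form of eEF1A and lies on chromosome 9 from 78478453 to 78481724, stood at 559.2, 367.6, 574.2, 623.8 and 615.6 CPM in FO1 to FO5. In CO1 to CO5 it stood at 691.1, 532.6, 514.8, 683.4 and 376.7 CPM. Both groups held 1 low mouse, FO2 and CO5, and the rest spanned 514.8 to 691.1 CPM. The means were 548 ± 105 CPM in FO and 560 ± 131 CPM in CO (SD, n = 5 each). The log2 fold change was -0.03 (SE 0.23, 95% interval -0.51 to 0.45), with p = 0.899 in edgeR and p = 0.889 in a two-sided exact permutation test over the 10 mice, whose smallest possible p is 0.00794. Eef1a2, the form of muscle and neurons, had 2 counts over all mice. Because 60.6% of the 50-base stretches of the Eef1a1 transcript recur in other annotated transcripts, its count is uncertain in level.

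Eef2, on chromosome 10 from 81176631 to 81182509, encodes the factor that translocates the ribosome and had the most counts of all 63 genes (3766). Its level was 617.9, 509.0, 709.7, 746.1 and 913.6 CPM in FO1 to FO5 and 644.6, 591.2, 538.9, 738.0 and 542.1 CPM in CO1 to CO5. FO5 was the highest and FO2 the lowest of all mice, so the FO group enclosed the CO group. Means were 699 ± 151 and 611 ± 83.1 CPM (SD, n = 5 each), with a log2 fold change of 0.19 (SE 0.21, interval -0.26 to 0.64, edgeR p = 0.383, exact permutation p = 0.333). Without FO5 it was 0.08, and without FO2 it was 0.29. Its inhibitory kinase Eef2k had 11 counts in all, at most 4 in any mouse, too few to compare.

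Of the eEF1B exchange complex, Eef1b2 (chromosome 1, 63176831 to 63180486) and Eef1g (chromosome 19, 8967041 to 8978180) were tested. Eef1b2, the catalytic beta subunit, stood at 278.5, 210.9, 348.4, 380.5 and 340.5 CPM in FO1 to FO5 and at 358.8, 298.3, 199.3, 216.3 and 254.6 CPM in CO1 to CO5. The FO range of 210.9 to 380.5 CPM and the CO range of 199.3 to 358.8 CPM overlapped almost whole. Its log2 fold change of 0.25 (SE 0.23, interval -0.24 to 0.73, edgeR p = 0.301, exact permutation p = 0.302) was the largest among Eef genes. It was 0.13 without FO4, where that of Eef2 was 0.14, 0.15 without CO3 and 0.37 without the 2 Malat1-rich libraries. Eef1g, the scaffold subunit, was the steadiest Eef gene, at 68.6 ± 13.9 CPM in FO and 74.2 ± 9.15 CPM in CO (SD, n = 5 each), a log2 fold change of -0.05 (SE 0.23, edgeR p = 0.822, exact permutation p = 0.389). Eef1e1, which is also part of the aminoacyl-tRNA synthetase complex, had 10 counts. Exons of Eef1b2 overlap those of Ndufs1, and 64.3% of the 50-base stretches of Eef1g recur in other transcripts, so these counts may hold or lack reads of other loci.

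**Figure D3:**
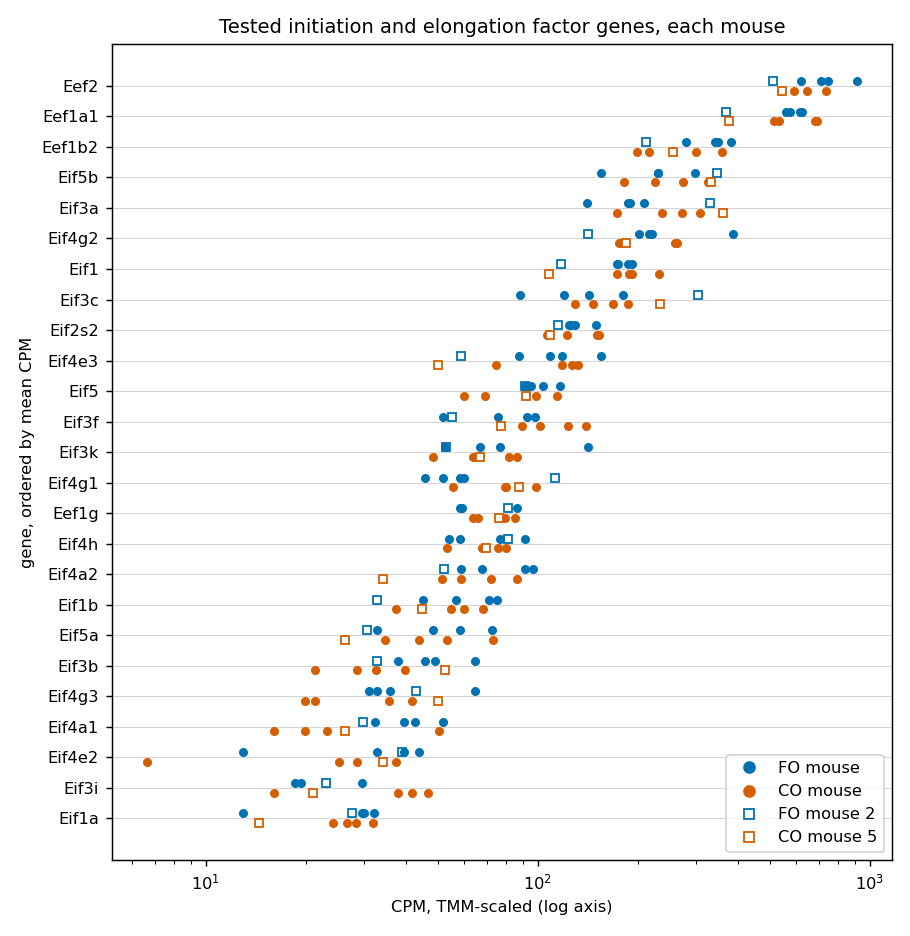
Level in CPM (log axis) of the tested Eif and Eef genes in each mouse, FO and CO side by side, with each point 1 mouse and open squares for FO2 and CO5. The FO and CO points overlap for every gene, and Eef2 and Eef1a1 stand highest.

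The eIF3 subunits were the group with the most negative fold changes, 4 of the 6 tested, with a median log2 fold change of -0.19. None of the 6 passed the test. Eif3f, on chromosome 7 from 108934415 to 108941942, had the smallest p of all 25 genes. It stood at 75.95, 55.02, 51.61, 92.65 and 98.23 CPM in FO1 to FO5 and at 139.6, 101.2, 89.82, 122.8 and 77.44 CPM in CO1 to CO5. The 3 highest values were CO mice and the 3 lowest FO mice, with overlap between. Means were 74.7 ± 21.2 and 106.2 ± 25.1 CPM (SD, n = 5 each), and the log2 fold change was -0.47 (SE 0.26, interval -1.01 to 0.07, edgeR p = 0.0853, exact permutation p = 0.0794). Without CO5 it was -0.57 and passed the unadjusted threshold (adjusted p = 0.999 in edgeR), as did 3.13% of all genes in that fit.

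Eif3a, which encodes the largest eIF3 subunit and lies on chromosome 19 from 60761116 to 60790693, ran at 188.7, 328.6, 187.1, 208.8 and 140.8 CPM in FO1 to FO5. In CO1 to CO5 it ran at 172.8, 271.7, 306.7, 236.2 and 360.9 CPM. FO2 was the only FO mouse above 208.8 CPM, and it and CO5 were the highest of the 10. The log2 fold change was -0.35 (SE 0.25, interval -0.88 to 0.18, edgeR p = 0.181, exact permutation p = 0.198). Leaving out FO2 turned it into a call, at -0.58 (SE 0.24, adjusted p = 0.67 in edgeR), while 154 genes in all were then called instead of 71. Of all genes, 7.26% were called in that fit. Without both FO2 and CO5 it was -0.45 and was not called.

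Eif3i had the largest negative fold change, from low values: 22.7 ± 4.32 CPM in FO and 32.6 ± 13.4 CPM in CO (SD, n = 5 each), with a log2 fold change of -0.52 (SE 0.32, edgeR p = 0.118, exact permutation p = 0.198). CO mice were on both sides, with CO1 at 46.52 and CO2 at 15.98 CPM. Eif3c, a core subunit, averaged 167 ± 83.0 and 173 ± 40.4 CPM, and its FO spread rested on FO2, at 302.6 CPM. Without FO2 and CO5 the log2 fold change of Eif3c was -0.25 instead of -0.04, and that of Eif3i was -0.69. Eif3b and Eif3k had fold changes above 0, at 0.26 and 0.09. Eif3g and Eif3m had 125 and 110 counts over all mice and were under the filter.

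In the eIF4 group the balance lay the other way, with 7 of 8 tested genes above 0 and a median log2 fold change of 0.10, and again none passed the test. Eif4e2, a cap-binding relative of eIF4E that represses translation, had the largest positive fold change, 0.39 (SE 0.33, interval -0.29 to 1.08, edgeR p = 0.247, exact permutation p = 0.46), from 33.6 ± 12.2 CPM in FO and 26.4 ± 11.98 CPM in CO (SD, n = 5 each). A single count was worth 6.645 CPM in CO1, and Eif4e2 was at 6.645 CPM there. Of the eIF4A helicases, Eif4a1 stood at 32.22, 29.80, 51.61, 39.53 and 42.57 CPM in FO1 to FO5 and at 19.94, 15.98, 50.38, 23.09 and 26.25 CPM in CO1 to CO5. CO mice other than CO3 were below every FO mouse, and CO3 was near the top. The log2 fold change was 0.37 (SE 0.32, interval -0.30 to 1.05, edgeR p = 0.26, exact permutation p = 0.0873). Without CO3 it was 0.70 and passed the unadjusted threshold (adjusted p = 0.999 in edgeR), as did 3.53% of all genes in that fit.

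Exons of Eif4a1 overlap small RNA genes, and 65.3% of its 50-base stretches recur in other transcripts, pseudogenes included. Its close paralogue Eif4a2 averaged 73.4 ± 19.9 CPM in FO and 60.6 ± 19.9 CPM in CO (SD, n = 5 each), with a log2 fold change of 0.28 (SE 0.29, edgeR p = 0.34, exact permutation p = 0.325). Eif4a3, which works in the exon junction complex rather than in initiation, had 137 counts. Eif4e3, another cap-binding relative, averaged 106 ± 35.7 and 100 ± 36.1 CPM. Eif4e itself had 116 counts and was not tested. Of the scaffolds, Eif4g2 (DAP5, which serves cap-independent initiation) averaged 233 ± 91.7 and 212 ± 44.2 CPM with a log2 fold change of 0.10, and Eif4g1 was the one eIF4 gene below 0, at -0.22 (SE 0.28).

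The 5 tested factors of start codon selection and subunit joining had log2 fold changes from -0.08 to 0.23. Eif5b, on chromosome 1 from 37998010 to 38055579, had the most counts of the Eif genes (1730) and averaged 251.8 ± 73.4 CPM in FO and 267 ± 64.7 CPM in CO (SD, n = 5 each), a log2 fold change of -0.08 (SE 0.24, edgeR p = 0.755, exact permutation p = 0.683). Its exons overlap those of Rev1. Eif1, the guardian of start codon choice, averaged 169 ± 29.7 and 179 ± 45.3 CPM, also -0.08. The summed level of the 8 genes of this role was 655.3 ± 47.3 CPM in FO and 653.4 ± 91.4 CPM in CO. Of the eIF2 trimer that carries the initiator tRNA, Eif2s2 was tested and was the most even gene of all 25, at 128.7 ± 12.9 and 128.2 ± 22.1 CPM (SD, n = 5 each). Its log2 fold change was 0.01 (SE 0.21, interval -0.44 to 0.46). Eif5a, which carries the hypusine residue and helps ribosomes over difficult stretches, had a log2 fold change of 0.19 (SE 0.34), and Eif5a2 had 6 counts.

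The regulators of the 2 control points were too thinly counted to test one by one. The 4 eIF2 alpha kinases had 237 counts over the 10 mice: Eif2ak2 (PKR), which senses double-stranded RNA, had the most, at 112, and Eif2ak4 (GCN2), which senses uncharged tRNA, the fewest, at 35. Their summed level was 34.7 ± 6.77 CPM in FO and 38.5 ± 11.6 CPM in CO (SD, n = 5 each), with ranges of 29.7 to 46.6 and 26.6 to 50.4 CPM. The 5 subunits of eIF2B, the exchange factor that the phosphorylated eIF2 blocks, summed to 64.8 ± 11.9 and 62.0 ± 20.9 CPM. The eIF4E repressors Eif4ebp1 to Eif4ebp3 and the eIF4E transporter Eif4enif1 summed to 39.5 ± 14.8 and 40.0 ± 14.3 CPM. In all 3 sets the group means lay closer together than the SD of either group.

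Other fits reached the thinner genes. With Rn45s left out before the filter, 36 of the 63 genes were tested (32 Eif, 4 Eef) and 0 were called, against 3.04% of the 3484 genes in that fit. With every gene that had a count, 1 of 53 was called, against 4.15% of 14161 genes. That gene was Eif2b1, the alpha subunit of eIF2B, with 7, 1, 0, 7 and 3 counts in FO1 to FO5 and 1, 0, 0, 1 and 1 in CO1 to CO5. Its log2 fold change was 2.04 (SE 0.95, adjusted p = 0.905 in edgeR), and most of its counts came from FO1 and FO4, with the other 4 eIF2B subunits uncalled.

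The family comparison was then made on levels. Family totals lack the chromosome 15 genes, Eef1d among Eef and Eif3d, Eif3e, Eif3h, Eif3l and Eif4b among Eif, so the shares and ratios here are those of the genes with counts. Eef2 and Eef1a1 held 77.16% of the 8932 Eef counts, and Eef1b2 brought this to 94.91%. Of the 14355 Eif counts, 6 genes (Eif5b, Eif3a, Eif4g2, Eif3c, Eif1 and Eif2s2) held 51.31%. With 10 of the 63 genes at 0, the 6 of chromosome 15 among them, the other 53 took 0.995 to 1.46% of the counts outside Rn45s in FO mice and 1.09 to 1.45% in CO mice. The exact Clopper-Pearson 95% interval of the lowest share was 0.967 to 1.02% (FO2) and of the highest 1.42 to 1.51% (FO4), covering counting error only. Both extremes were FO mice.

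Per kilobase of transcript, so that genes can be set beside each other, Eef1a1 led with 308.8 ± 62.4 CPM per kb (SD, n = 10 mice), followed by Eef2 at 212.1 ± 40.1 and Eef1b2 at 148.8 ± 34.5. This order held in 10 of 10 mice at each step. Eif1 came next, with 131.4 ± 27.6 CPM per kb, and was below Eef1b2 in 7 of 10 mice, so these neighbours in the order did not part beyond their spread. Eif3k (95.3 ± 35.1), a small peripheral eIF3 subunit, and Eif1b (52.8 ± 14.0), a paralogue of Eif1, followed. Eef1g, at 38.3 ± 6.16 CPM per kb, was the only tested Eef gene amid the Eif genes. The median over tested genes was 180.4 CPM per kb for Eef and 30.34 for Eif, with Eif genes from 6.115 (Eif4g3) to 131.4 (Eif1). Lengths are those of the longest principal transcript, and with the shortest, chosen after seeing the data, the Eif median was 35.97, Eif4g2 rising from 27.84 to 62.72 CPM per kb.

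The ratio of summed Eef to summed Eif counts, without the chromosome 15 genes, compared the families within each mouse. It was 0.671, 0.485, 0.657, 0.758 and 0.871 in FO1 to FO5 and 0.705, 0.689, 0.545, 0.667 and 0.519 in CO1 to CO5. FO held both the lowest ratio (FO2) and the 2 highest (FO5 and FO4), and the groups overlapped. Means were 0.688 ± 0.142 in FO and 0.625 ± 0.08645 in CO (SD, n = 5 each), and their difference of 0.0637 was smaller than the pooled SD of 0.118. Between mice of a group, the SD of log2 CPM had a median of 0.30 over Eef genes (0.23 to 0.34) and of 0.42 over Eif genes, from 0.20 (Eif2s2) to 0.73 (Eif4e2). The tested Eif genes also stood lower, with mean levels of 25.73 to 259.6 CPM against 71.39 to 655.1 CPM for Eef genes. Low counts add counting error to this SD, so the families cannot be compared in spread apart from level.

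**Figure D4:**
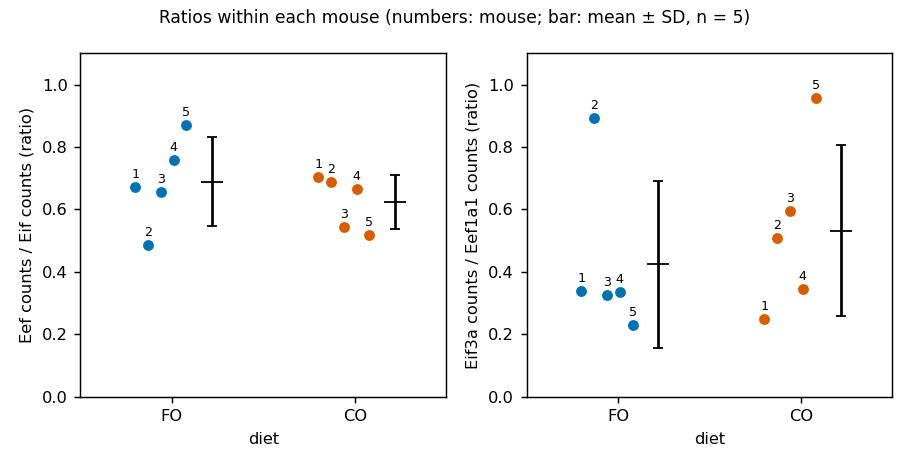
Ratio of summed Eef to summed Eif counts and ratio of Eif3a to Eef1a1 in each of the 10 mice (points, numbered by mouse), with bars for the group mean ± SD (n = 5 each). FO and CO overlap in both ratios, and FO2 and CO5 have the 2 highest Eif3a to Eef1a1 ratios, 0.894 and 0.958.

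The 2 Malat1-rich libraries, FO2 and CO5, 1 in each diet group, stood apart from the other 8 in many genes, translation factors among them. This is given as a description with no test, since the pair was singled out from the data. Both were above all 8 others in Eif3a, Eif3c and Eif5b, and both were below all 8 in Eef1a1, Eif1, Eif4e3 and Eif5a. These are 3 and 4 of the 25 genes, beside 302 and 187 of all 2438 genes tested. The share above the others is near that of all genes, and the share below is larger but rests on 4 genes. Standing apart was therefore not particular to translation factors. The ratio of Eif3a to Eef1a1 was 0.894 in FO2 and 0.958 in CO5, against 0.229 to 0.596 in the other 8 mice.

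The genes that were high in this pair had long transcripts (Eif3c 3383, Eif3a 5125 and Eif5b 7797 bases) and those that were low had shorter ones (Eif1 1322, Eif5a 1437, Eef1a1 1794 and Eif4e3 2515 bases). Across the 25 genes the log2 ratio of the pair over the other 8 had a Spearman correlation of 0.52 with transcript length, and of 0.44 across 2333 genes with a length, all points sharing the same 10 libraries. Eif4g2 went against the trend, with a log2 ratio of -0.55 at 7995 bases, although its shortest principal transcript has 3548 bases. The median log2 ratio was -0.36 for the 25 genes and -0.04 for all. Libraries had been made with 1 of 2 kits and read on 1 of 3 sequencers, and which mouse had which is not given in the sources used here, so their part in this was not tested. The same pair was above the other 8 in summed cardiac muscle markers, at 378 and 213 CPM against at most 146 CPM, and in summed endothelial markers, at 420 and 390 CPM against at most 336 CPM, whose part was not tested either. Without the pair, 0 of the 24 Eif and Eef genes then tested were called, against 3.93% of all genes in that fit, and the FO minus CO difference of the Eef to Eif ratio was 0.0881 instead of 0.0637.

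**Figure D5:**
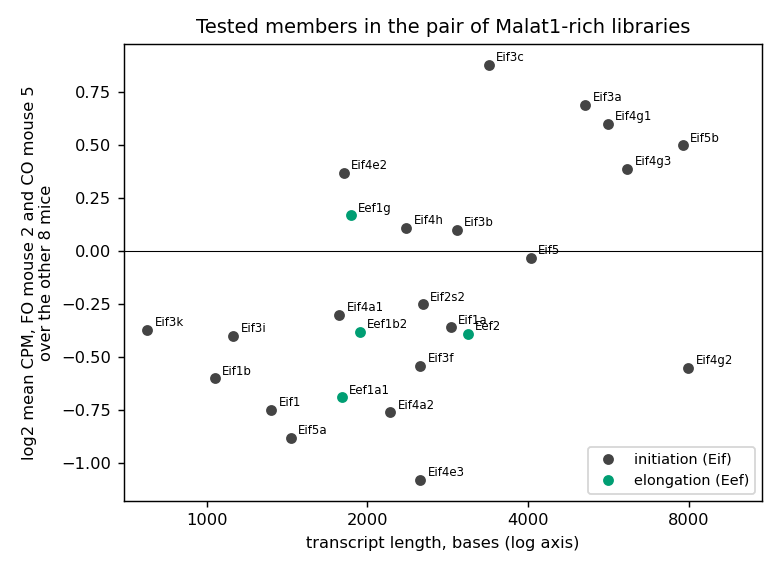
Log2 ratio of mean CPM in FO2 and CO5 over that in the other 8 mice against transcript length in bases (log axis) for the 25 Eif and Eef genes tested. Eif3c, Eif3a and Eif5b lie above 0 at lengths of 3383 bases or more, and Eif4e3 (-1.08) and Eif5a (-0.88) lie lowest.

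Genes that act with the factors were described from 7 lists of 76 genes in all, of which 71 had a count and 15 were tested. None of the 15 was called, against the background of 2.91%. The fold change was above 0 in 12 and below 0 in 3, with a median of 0.20. The integrated stress response, the program that phosphorylated eIF2 sets off, gave 5 tested genes of 18, namely the transcription factors Atf5 (0.40) and Cebpb (0.32), the eIF2 phosphatase subunit Ppp1r15b (0.19), the chaperone and kinase inhibitor Dnajc3 (0.42) and the stress regulator Nupr1 (0.20), as log2 fold changes of FO over CO. All 5 were above 0, against 50.57% of all genes tested, with a median of 0.32, and none passed the test. Their SEs ran from 0.24 (Atf5) to 0.61 (Cebpb), and the smallest edgeR p was 0.119 (Atf5). Dnajc3, the highest of the 5, was at 0 CPM in CO1. Cebpb was at 0 CPM in CO5 and at 86.39 CPM in CO1 (exact permutation p = 0.532). Genes of this list under the filter went both ways, such as Ddit3 (9.84 CPM in FO, 6.07 in CO) and Asns (2.47 and 3.50). Atf4, the central factor of this program, lies on chromosome 15 and was listed at 0. Of mTORC1 and its inputs, 5 of 18 genes were tested, 3 above and 2 below 0, with a median of 0.02. The smallest p of all 15 was that of the termination factor Etf1, at a log2 fold change of 0.49 (edgeR p = 0.0867, exact permutation p = 0.0952). None of the 10 modification and selenocysteine genes and none of the 10 mitochondrial translation factors passed the filter. Some other fits called genes of these lists. Atf5 was called at 0.54 without FO2 and CO5 (3.93% of all genes called) and at 0.51 without FO2 (7.26%). Etf1 was called at 0.60 without FO2 and at 0.60 without CO1 (3.25% of all genes). With every gene that had a count, 3 of 71 were called, Dhps, Mtrf1 and Sesn2, against 4.15% of all genes.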

How the data were processed

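The deposited values are raw read counts, not normalized, for each gene symbol in 10 lung samples, 1 per mouse. Single-end Illumina reads of TruSeq RNA v2 or riboZero libraries had been aligned with STAR 2.4.0f1 to mm10, sorted with SAMtools 0.1.19 and counted with htseq-count. Its annotation, strand setting and treatment of reads matching several genes are not given in the sources used here. Diets were taken from the sample labels, and 0 columns were left unused.

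Tests used edgeR 4.0.16 under R 4.3.3 (TMM, default filter with a minimum count of 10 and minimum total of 15, quasi-likelihood test, 2438 genes). A call is an unadjusted p under 0.05, the threshold of the study's methods, with Benjamini-Hochberg adjusted p beside it. SE is the absolute log2 fold change over the square root of F, and intervals use edgeR's total degrees of freedom. The floor of a mouse was 3 counts, or 2.29 to 19.9 CPM. Exact permutation tests ran over 252 assignments on log2 CPM with a prior count of 2. The scripts were tested on simulated data. Gene positions came from RefSeq GRCm38, and lengths, exon overlap and shared 50-base stretches from GENCODE M21 on the same build. Lengths are of the longest basic principal protein-coding transcript.

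The members and lists were chosen with earlier results of these data known. The rule for named genes took genes called or not overlapping, the 2 most abundant per role, all paralogues of set pairs, the kinases and repressors, and the largest fold changes per family. Eif3f, Eif3k, Eif1b, Eif4g1, Eif4g3, Eif2b1, the eIF3 genes given with a fold change or count, Etf1, Dhps, Mtrf1, Sesn2, the genes of the integrated stress response and Malat1 were named after their values were seen. Alternatives were DESeq2 1.42.0, RLE scaling, no scaling beyond library size, all genes that had counts, Rn45s left out, a replicate block, the 2 Malat1-rich libraries left out, and each mouse left out.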

Additional observations from a re-analysis of the deposited data

Results flagged for a closer look

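Of 38 groups of 5 mice looked at, 3 held a mouse far from the other 4 by Dixon's ratio at the 95% level. In independent groups chance gives about 1 in 20, or 1.9 of 38. These groups are measures of the same mice and are not independent, so no conclusion on chance is drawn from that number. In all 3 the far mouse was FO2, 1 of the 2 Malat1-rich libraries. Eef1a1 stood at 367.6 CPM in FO2 and at 559.2 to 623.8 CPM in the other FO mice. Eif1 stood at 117.7 CPM in FO2 and at 173.5 to 192.2 CPM in the other FO mice. The ratio of Eif3a to Eef1a1 was 0.894 in FO2 and 0.2287 to 0.3374 in the other FO mice, and it shares Eef1a1 with the first of these. It sets a gene that was high in FO2 over one that was low there, so its distance was partly built in. In the CO group the same 3 measures did not pass the ratio, although CO5 was the extreme mouse in each, at 376.7 CPM, 107.6 CPM and 0.958.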

How the results depend on the processing

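DESeq2, RLE factors, leaving out Rn45s and the replicate block left the count of called Eif and Eef genes at 0, as did scaling by library size alone. Library size alone moved the median of all genes to -0.55 on the log2 scale, the Eif median to -0.59 and the Eef median to -0.54, so relative to all genes the families moved little, and it called 36 genes in all, 1 higher and 35 lower. Under it the log2 fold change turned below 0 in 9 named genes, Eef1b2 (-0.28), Eef2 (-0.48), Eif2s2 (-0.63), Eif4a1 (-0.12), Eif4a2 (-0.22), Eif4e2 (-0.13), Eif4e3 (-0.71), Eif4g2 (-0.67) and Eif5a (-0.36). With genes of any count, 587 genes, 1 Eif gene (Eif2b1) and 3 listed pathway genes (Dhps, Mtrf1 and Sesn2) were called, and Eef1a1 turned to 0.01. Without FO2 and CO5, 1 pathway gene (Atf5) was called and Eif4e3 turned to -0.03. Those 9 turns go with the shift common to all genes. In the other settings that kept every mouse or left out that pair, 2 of 102 values of 17 named genes reversed, Eef1a1 and Eif4e3 as given, and 0 became calls. Leaving out each mouse in turn, the called genes numbered 54 to 154 in all (154 without FO2), 0 to 1 among Eif, 0 among Eef and 0 to 2 in the pathway lists. The Eif median ran from -0.03 to 0.12, the Eef median from 0.01 to 0.19 and the difference of the Eef to Eif ratio from 0.0180 to 0.115. Values that crossed 0 ran from -0.14 to 0.09 (Eef1a1), -0.18 to 0.01 (Eef1g), -0.23 to 0.06 (Eif1), -0.06 to 0.10 (Eif2s2), -0.41 to 0.11 (Eif3c), -0.18 to 0.19 (Eif4e3), -0.14 to 0.24 (Eif4g2), -0.08 to 0.38 (Eif5a) and -0.22 to 0.02 (Eif5b). Without crossing 0, Eef2 ran from 0.08 (without FO5) to 0.29 and Eef1b2 from 0.13 (without FO4) to 0.37 (without FO2). The cause of these moves was not tested. The initiation factor median per kilobase moved from 30.34 to 35.97 CPM with the shortest transcript, an alternative chosen after seeing the data. With the replicate number as a block, 55 genes and 0 Eif or Eef genes were called, with medians of 0.07 and 0.08. Same-numbered mice are different animals and share only a number: deviations in the 5 pairs correlated at -0.41 to 0.03 (mean -0.12, other 20 pairs 0.03), and 0 mice correlated best with their own number. Depth limits the thinner genes most, since 3 counts stood for up to 19.9 CPM.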
